A study of Mus musculus with 2 samples.

Results

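The 9 microRNA genes Mir337, Mir3544, Mir540, Mir665, Mir431, Mir433, Mir127, Mir434 and Mir136 form the proximal group of the imprinted Dlk1-Dio3 interval on mouse chromosome 12. They were taken by symbol from the 2202 annotated miRNA genes, and all 9 were found. The 2 libraries are microRNA sequencing of total RNA from hippocampal tissue of male B6CASTF1/J mice, F1 hybrids aged 18 to 20 months, and they form 1 group, replicate 1 and replicate 2. Each library has its own tissue entry in the labels, while the donor entry is the same for both, and nothing is said of pooled animals. The labels do not say outright that the libraries came from separate animals, so differences between them may be technical. There was no second condition, and the comparisons below are between genes, between strands and between the replicates.

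MicroRNAs are cut from hairpin transcripts and guide the silencing complex to messenger RNAs that pair with their seed, bases 2 to 8 from the 5′ end. In the Dlk1-Dio3 interval the non-coding RNAs of the plus strand, most of these microRNAs among them, are made from the maternal chromosome. Dlk1, Dio3 and the retrotransposon-derived gene Rtl1 are expressed from the paternal one. MicroRNAs encoded on the strand opposite to Rtl1 pair with its messenger RNA along their whole length and are known to direct its cleavage. The counts here do not separate the parental alleles, and Rtl1 messenger RNA was not measured.

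By the annotation, only some of the 9 genes lie antisense to Rtl1. Mir431 (chr12:109590447-109590537), Mir433 (chr12:109591715-109591838), Mir127 (chr12:109592846-109592915), Mir434 (chr12:109594506-109594599) and Mir136 (chr12:109595327-109595388) lie on the plus strand, wholly opposite the coding part of exon 2 of Rtl1, which is transcribed from the minus strand (mm10, GENCODE M21). Mir337 (chr12:109585789-109585885), Mir540 (chr12:109586080-109586146) and Mir665 (chr12:109586314-109586407) are also on the plus strand, but beyond the annotated 3′ end of Rtl1, at distances of 3308, 3047 and 2786 nt. Mir3544 (chr12:109585813-109585873) is on the minus strand, inside the span of Mir337. The working name of the group, antisense to Rtl1, therefore describes 5 of the 9 genes in this annotation.

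**Figure D1:**
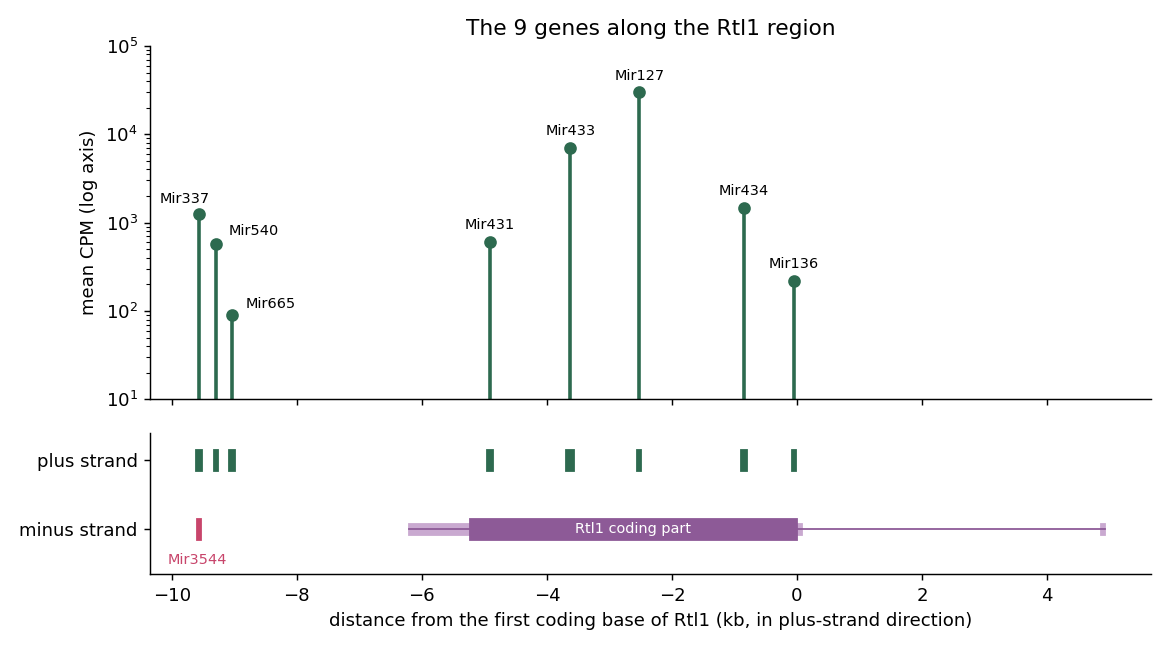
Mean level of the 9 genes (upper panel, CPM on a log axis) against their distance from the first coding base of Rtl1 in kb, with the strands below (green, plus-strand miRNA genes; red, Mir3544; purple, Rtl1 with its coding part as the taller box). The 5 genes opposite the coding part include the most abundant, Mir127 and Mir433, and Mir3544 has no point because it had 0 counts.

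RefSeq (GRCm38.p6) lists 18 mature sequences for the 9 genes, a 5p and a 3p arm each, and all 9 hairpins have the same coordinates there as in GENCODE. The sequences of the most abundant genes are shown first, with the seed in capitals. The counts are per gene and do not tell which arm was read.
miR-127-5p: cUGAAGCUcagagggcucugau
miR-127-3p: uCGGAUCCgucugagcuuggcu
miR-433-5p: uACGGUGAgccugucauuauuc
miR-433-3p: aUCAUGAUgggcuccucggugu

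All 10 mature sequences of Mir431, Mir433, Mir127, Mir434 and Mir136 had a perfectly complementary site in the Rtl1 transcript, 1 site each, and none of the other 8 had one. The site opposite miR-127-3p covers codons 832 to 839 of the 1744 codons of Rtl1. It is shown 5′ to 3′ as DNA, with the bases that pair with the seed in capitals.
Rtl1 site of miR-127-3p: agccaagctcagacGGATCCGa
Along Rtl1, the Mir136 hairpin is opposite codons 6 to 26, Mir434 opposite codons 269 to 300, Mir127 opposite codons 830 to 853, Mir433 opposite codons 1189 to 1230 and Mir431 opposite codons 1623 to 1653. The 5 hairpins are thus spread from the first codons to the last part of the protein.

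Mir337 and Mir3544 are annotated on opposite strands of the same DNA, so their mature sequences overlap as reverse complements while their seeds differ. Both arms of each are shown for this reason.
miR-337-5p: cGGCGUCAugcaggaguugauu
miR-337-3p: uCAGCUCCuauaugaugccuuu
miR-3544-5p: aGAAAGGCaucauauaggagcug
miR-3544-3p: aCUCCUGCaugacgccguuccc
The hairpin of Mir136 lies in the same way inside that of Mir3071 (chr12:109595318-109595397), which is on the minus strand and is not among the 9 genes. An arm of each is shown because one is nearly the reverse complement of the other.
miR-136-5p: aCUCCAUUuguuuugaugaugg
miR-3071-3p: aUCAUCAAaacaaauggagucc

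The 18 mature sequences had 18 different seeds, so no seed was shared within the group. In all of the mature mouse sequences listed, 1 of the 18 seeds recurred, that of miR-540-3p in miR-6915-5p.
miR-540-3p: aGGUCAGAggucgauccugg
miR-6915-5p: aGGUCAGAgcagauggagguucgu
Mir6915 had 24 counts in replicate 1 and 19 in replicate 2 (4.89 ± 2.12 CPM, SD, n = 2), against 1910 and 3592 counts for Mir540.

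The tables assign a read to a gene only when it maps to 1 place, so shared sequence lowers a count. None of the 18 mature sequences occurred on the same strand in any other gene among 141767 annotated transcripts. The longest stretch that a hairpin of the group shared with another annotated hairpin in the same direction was 11 to 13 nt, with 13 nt between Mir540 and Mir6915. No genome sequence was searched, so matches outside annotated transcripts were not tested.

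Replicate 1 held 3758318 sense counts over all miRNA genes and replicate 2 held 5598792. The 9 genes had 150784 of these in replicate 1 (4.01%, Wilson 95% interval 3.99 to 4.03%) and 237259 in replicate 2 (4.24%, interval 4.22 to 4.25%). Intervals and limits cover no more than counting error within 1 library. They may be too narrow even for that, because the reads carry no molecular identifiers and copies of a molecule cannot be told from further molecules. As a check of the tissue, the markers listed for neurons (8 of 12 with at least 10 counts in both libraries) summed to 50948 and 52470 counts per 1000000 sense counts (CPM), those for astrocytes (2 of 2) to 22987 and 23043 CPM, those for oligodendrocytes (2 of 2) to 6090.2 and 9705 CPM, those for endothelial and mural cells (3 of 3) to 22045 and 16510.2 CPM, and those for choroid plexus (3 of 3) to 850.4 and 1495 CPM in replicates 1 and 2. Those for muscle (1 of 4) summed to 53.7 and 84.1 CPM, and the liver gene Mir122 had 23.9 and 47.5 CPM. The markers of endothelial and mural cells were thus the lower in replicate 2 in CPM and the others the higher, though on the TMM scale used below, where CPM ratios are divided by 1.25, the neuron and astrocyte sums are also the lower in replicate 2, and their part in the differences between the replicates was not tested. The neuron list holds numbered copies of a gene, such as Mir124a-2 (0 and 2 counts) and Mir124a-3 (0 and 0). Reads that map to several copies are in no gene, so a low count there need not mean absence. The neuron sum may be too low for this reason, and the sums do not compare cell types. In tissue RNA, fewer cells of a type and less RNA per cell cannot be told apart.

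The group was dominated by a single gene. Mir127, whose microRNA is known from placenta as well as brain, had 112259 counts in replicate 1 and 168609 in replicate 2, that is 29869.5 and 30115 CPM (mean 29992 ± 174 CPM, SD, n = 2 here and below). By reads that map to 1 place it ranked 8 among the 2202 miRNA genes. It held 74.5% of the group's counts in replicate 1 and 71.1% in replicate 2. Ranks here and below leave out reads that map to several places (51.5% and 46.7% of all reads in replicates 1 and 2). MicroRNAs with several gene copies can therefore rank too low. Mir433, known as a regulator of the growth factor FGF20, followed with 25542 and 41028 counts, or 6796 and 7328 CPM (7062 ± 376 CPM, rank 29). Each of these genes was therefore at nearly the same CPM in the 2 libraries, while the mean level of Mir127 was 4.25 times that of Mir433.

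Mir434 had 4218 and 10056 counts in replicates 1 and 2, or 1122 and 1796 CPM (1459 ± 476 CPM, rank 75). Mir337 had 4062 and 7856 counts, or 1081 and 1403 CPM (1242 ± 228 CPM, rank 81). The ranges of these 2 genes over the libraries overlapped, so their order was not resolved beyond the spread, although Mir434 was the higher in each library. Mir431, studied in axon regrowth and in muscle precursors, had 1996 and 3847 counts, or 531 and 687 CPM (609 ± 110.3 CPM, rank 114). Mir540 had 1910 and 3592 counts, or 508 and 642 CPM (575 ± 94.3 CPM, rank 116). These 2 ranges overlapped as well, with a ratio of means of 1.06.

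Mir136 had 556 and 1628 counts, or 148 and 291 CPM (219 ± 101 CPM, rank 157). Mir665 was the lowest of the counted genes, with 241 and 643 counts, or 64.1 and 115 CPM (89.5 ± 35.9 CPM, rank 198). In both genes replicate 2 was the higher in CPM, as it was in all 8 counted genes and in 260 of the 384 detected genes. The ranges of Mir136 and Mir665 did not overlap. The 8 counted genes stood in the same order in both libraries, over a range of means from 89.5 to 29992 CPM. A read covers a whole mature microRNA, so CPM are not divided by length, and when divided by the hairpin length only Mir431 and Mir540 changed places (6.69 and 8.58 CPM per nt). The counts carry no correction for sequence when genes are compared.

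**Figure D2:**
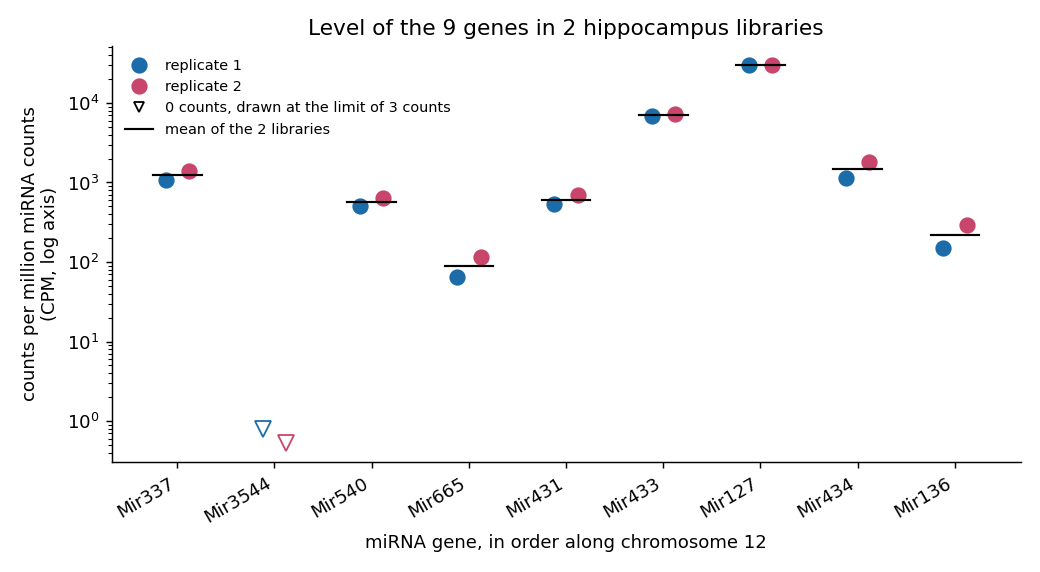
Level of each gene in replicate 1 (blue) and replicate 2 (red), in CPM on a log axis, in order along the chromosome, with the mean as a black line and open triangles at the limit of 3 counts for a gene with 0 counts. Mir127 stands at about the same CPM in both libraries, 29869.5 and 30115, while Mir136 and Mir665 are spread most widely.

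Mir3544 had no sense count in either library. With 0 counts seen, a level of up to 3 counts cannot be told from none, which is 0.798 CPM in replicate 1 and 0.536 CPM in replicate 2. Mir337, on the other strand of the same DNA, was at least 1354-fold higher than this limit in replicate 1 and at least 2619-fold higher in replicate 2, with the limit taken per library. The opposite-strand column of Mir3544 held 4062 and 7856 counts, exactly the sense counts of Mir337, and the opposite-strand column of Mir337 held 0. All reads counted for Mir337 thus overlapped the span of Mir3544, and all were in the direction of Mir337.

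The same pattern held for Mir136 and its minus-strand partner. Mir3071 had 0 sense counts in both libraries, and its 556 and 1628 opposite-strand counts equalled the sense counts of Mir136, which was at least 185-fold and at least 543-fold above the limit in replicates 1 and 2. In the unstranded column Mir337, Mir3544, Mir136 and Mir3071 were all listed at 0, because a read that lies in 2 genes is not assigned when strand is ignored. With that column the group would have shown 6 counted genes in place of 8. Across the interval from Dlk1 to Dio3 there were 7 such overlapping pairs. The minus-strand gene had no sense count in any of the 7, and in 6 of them the plus-strand count equalled the partner's opposite-strand count in both libraries. In the exception, Mir299a and Mir299b (named after their values were seen), the counts differed by 1 in replicate 2.

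The 6 genes of the group without a partner on the other strand had no opposite-strand count at all, beside 146166 sense counts in replicate 1 and 227775 in replicate 2. Over all miRNA genes the opposite-strand column held 287729 and 425273 counts. That is close to the 287630 and 425131 reads left unassigned as lying in more than 1 gene when strand is ignored. Few opposite-strand counts thus remain for genes without a partner, and the 0 is not particular to these 6. Counts of 0 allow a share of up to 0.00205% and 0.00132% of those sense counts. Small RNA in the direction of the Rtl1 messenger RNA was therefore not detectable over Mir431, Mir433, Mir127 and Mir434 at this depth. Over Mir136 such small RNA was also not detected, since its own opposite-strand column held 0. With 556 and 1628 sense counts for Mir136, the limit is a still larger share there.

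The 9 genes held 41.9% of the counts of all 67 annotated miRNA genes from Dlk1 to Dio3 in replicate 1 (150784 of 360171 counts, Wilson 95% interval 41.7 to 42.0%). In replicate 2 the share was 44.2% (237259 of 536292 counts, interval 44.1 to 44.4%), giving a mean of 43.1% ± 1.68. Without Mir127 in either sum the share was 17.1% ± 2.21. At 10 counts in both libraries, 8 of the 9 genes and 44 of the 58 others were detected, beside 384 (17.4%) of all 2202. The median of the mean levels was 609 CPM over the 9 genes and 102 CPM over the 58 others. The most abundant of the others were Mir411 (7757 ± 1328 CPM), Mir382 (7191 ± 510.4 CPM) and Mir770 (6885 ± 1187 CPM), each near Mir433 and well under Mir127.

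**Figure D3:**
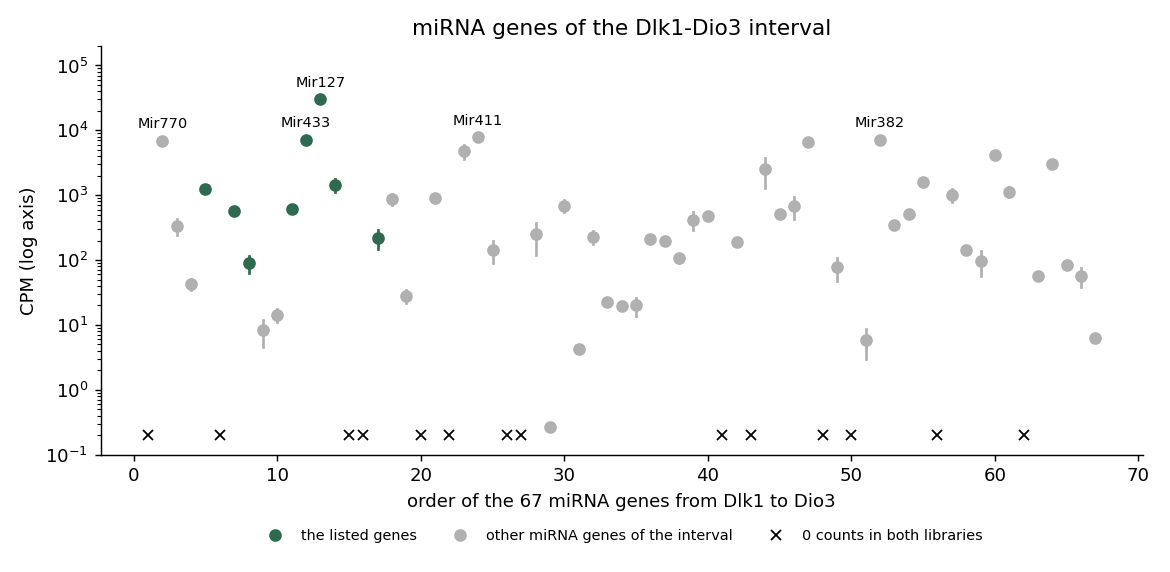
CPM on a log axis of the 67 miRNA genes from Dlk1 to Dio3 in chromosome order (points, mean of 2 libraries; vertical lines, range over the libraries; crosses, 0 counts in both), with the 9 genes in green. Mir127, at 29992 CPM, is the highest of the interval, and the green genes span the range from 89.5 CPM upward with Mir3544 among the crosses.

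In CPM the group's sum was the higher in replicate 2 and that of the other interval genes the higher in replicate 1. The 9 genes summed to 40120.1 in replicate 1 and 42377 in replicate 2, and the 58 others to 55713 and 53410.3. The 2 sums together were 95833 and 95787 CPM. On the TMM scale (edgeR's scaling, which sets the bulk of genes equal) both sums were the higher in replicate 1, with log2 ratios of -0.24 for the 9 genes and -0.38 for the others. Without Mir127, left out after seeing the data, the group's sum had a log2 ratio of -0.06. Of the 8 counted genes, 6 had a ratio above 0 on this scale and 2 below, so Mir127 sets most of the sum's value. With 2 libraries no test of the difference between the group and the other genes over samples was possible.

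The detected genes closest to Mir127, by Euclidean distance in log2(CPM + 1) over the 2 libraries, were Mir23b (29522 and 28197 CPM, distance 0.10), Mirlet7e (25023 and 23628 CPM, distance 0.43) and Mir99a (39534 and 26370.2 CPM, distance 0.45). None lies on chromosome 12. With 2 libraries this likeness is one of level, and says little about how the genes vary.

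Differences between the replicates depend on the scaling. TMM scaling puts the median of the 384 detected genes at a log2 ratio (replicate 2 over replicate 1) of -0.01, whereas CPM puts it at 0.31. An exact two-sided binomial test on the TMM scale, with Benjamini-Hochberg adjustment over all 384 genes at 0.05, called 65.1% of them, 34.1% as higher in replicate 1 and 31% as higher in replicate 2. Of the group it called 6 of 8, a share near that background, with Mir127 and Mir433 higher in replicate 1 and Mir337, Mir665, Mir434 and Mir136 higher in replicate 2. In the rest of the interval the test called 33 of 44, with replicate 1 the higher for 19 and replicate 2 for 14. The test covers counting error alone and compares these libraries, not conditions.

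On the TMM scale Mir127 was 1.24-fold higher in replicate 1 (log2 ratio -0.30), with a p-value too small to be held as a number above 0. Mir433 was 1.16-fold higher in replicate 1 (log2 ratio -0.21, adjusted p = 1.35e-71, exact binomial test). In CPM both were slightly higher in replicate 2, with log2 ratios of 0.01 and 0.11, below the median gene's 0.31. With total counts as the scale, the exact binomial test called 8 of 8 genes as higher in replicate 2 and none as higher in replicate 1, beside 70.6% of the 384 genes called in all, 50.8% as higher in replicate 2 and 19.8% as higher in replicate 1. The direction for Mir127 and Mir433 is therefore set by the scaling.

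Mir136 showed the widest difference of the group, 1.58-fold higher in replicate 2 on the TMM scale (log2 ratio 0.66, adjusted p = 3.11e-21, exact binomial test) and 1.97-fold in CPM. Mir665 was 1.44-fold higher in replicate 2 on the TMM scale (log2 ratio 0.52, adjusted p = 2.10e-06, exact binomial test) and Mir434 1.28-fold (log2 ratio 0.36, adjusted p = 4.04e-43, exact binomial test). These 3 genes were higher in replicate 2 on both scales. Even so, 31.2% of the detected genes differed by as much as Mir136 or more. Mir337 (log2 ratio 0.06, adjusted p = 0.0496, exact binomial test) stood at the threshold, and its adjusted p was 0.0655 when genes with at least 5 counts were tested. Mir431 (log2 ratio 0.05, adjusted p = 0.219) and Mir540 (log2 ratio 0.02, adjusted p = 0.707) did not pass the exact binomial test.

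**Figure D4:**
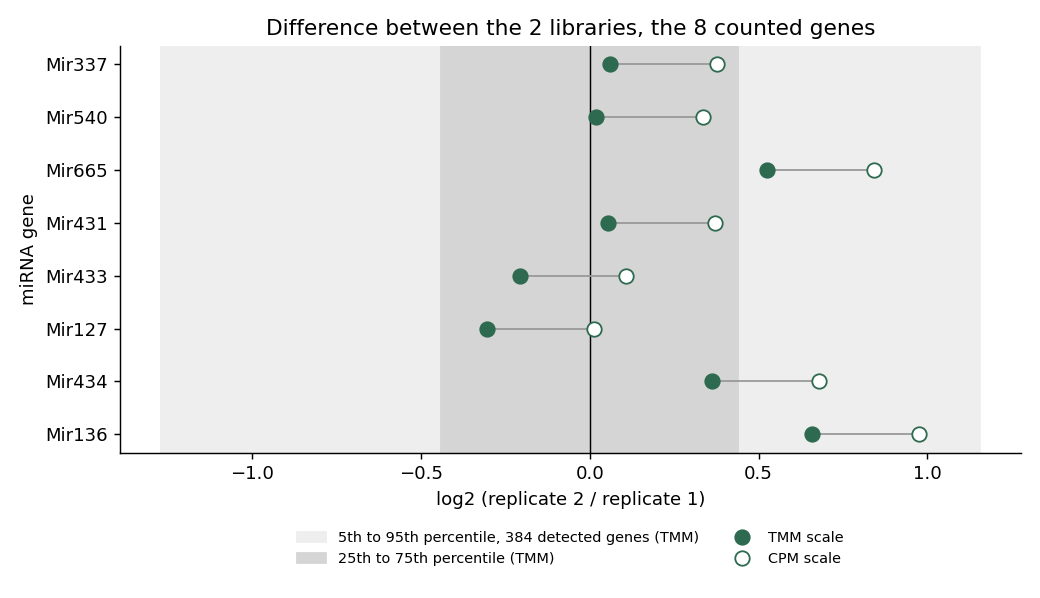
Log2 ratio of replicate 2 over replicate 1 for the 8 counted genes on the TMM scale (filled) and the CPM scale (open), with the 25th to 75th percentile (dark grey) and the 5th to 95th percentile (light grey) of all 384 detected genes on the TMM scale. On the TMM scale only Mir665 and Mir136 lie outside the dark band, and Mir127 and Mir433 change sign between the scales.

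Whether these differences exceed the usual spread between samples cannot be tested with 2 libraries. The coefficient of variation between the 2 libraries beyond counting error was 34.4% over the 384 genes (from the edgeR common dispersion). Biological and technical parts of it cannot be told apart here. An edgeR exact test at that dispersion called 0 of the 8 genes, beside 0.521% of the 384. At an unadjusted p under 0.05 it called 0 of the 8, beside 18 of the 384. The dispersion holds the very difference that is tested, so these counts say nothing for or against a difference.

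The composition of the group can be given without any scaling, as counts per 1000 counts of Mir127. Mir433 had 228 in replicate 1 and 243 in replicate 2, Mir337 had 36.2 and 46.6, Mir431 had 17.8 and 22.8, and Mir540 had 17.0 and 21.3. Mir434 had 37.6 and 59.6, Mir136 had 4.95 and 9.66, and Mir665 had 2.15 and 3.81. All 7 were higher relative to Mir127 in replicate 2, by 1.07-fold for Mir433 up to 1.95-fold for Mir136. Of the 383 other detected genes 67.1% were higher relative to Mir127 in replicate 2, and the median detected gene by 1.23-fold, so the shared direction follows in part from taking Mir127 as the base.

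The hairpins had little in common beyond their place. Their lengths ran from 61 nt for Mir3544 to 124 nt for Mir433, and their GC content from 40.3% for Mir136 to 61.2% for Mir540, with a median of 53.2% beside 50.8% over all annotated hairpins. The free energy predicted by RNAfold was -0.47 kcal/mol per nt at the median of the 9, beside -0.37 over all hairpins and -0.43 over detected ones. Mir540 had the lowest value (-0.61) and Mir433 the highest (-0.36), with Mir127 at -0.50, so the order of the genes by predicted stability was not that of their levels.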

How the data were processed

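MicroRNA sequencing gave 2 libraries in 1 group. The deposited tables hold raw read counts per miRNA gene (whole numbers, no normalization) in an unstranded and 2 stranded columns, on mm10 with GENCODE M21 per the labels and the deposited description of the files. Aligner and counter: not given in the sources used here. Reads that mapped to several places (51.5% and 46.7% of all reads) are in no gene. Unmapped reads were 9.53% of all reads in replicate 1 and 14.4% in replicate 2. Their part in the differences between the replicates was not tested. The 4 summary lines were left out of every total and test.

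Column 3, which has the larger total, was taken as sense. CPM are per 1000000 sense counts. Replicates differed beyond sampling noise (chi-square 243102 on 383 degrees of freedom, detected genes). Detected means at least 10 counts in both libraries. TMM and dispersion came from edgeR 4.0.16, size factors from DESeq2 1.42.0, binomial tests from scipy 1.17.1 and folding from RNAfold 2.7.2. The code of the binomial test was checked on simulated counts with counting error alone. That check does not cover the wider spread between these libraries. A count of 0 is given with a limit of 3 counts.

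The members, lists, tests and alternatives were chosen with earlier results of these data known. Named genes are the 9 members, genes overlapping them on the other strand, the 3 most abundant other genes of the interval, the 3 closest to Mir127 and detected genes sharing a seed. Alternatives were the unstranded column, other denominators, scalings, count minimums and tests, and each replicate left out.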

Additional observations from a re-analysis of the deposited data

How the results depend on the processing

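The summed level of the 9 genes, 41248 ± 1596 CPM, was 43069 CPM with the unstranded counts, 14470.1 per 1000000 reads of all kinds and, without Mir127 (an alternative chosen after seeing the data), 11256 CPM. The median gene's level, 609 CPM, was 213 per 1000000 reads of all kinds, and the share of the interval, 43.1%, was 17.1% without Mir127. With 1 replicate left out, the sum ranged from 40120.1 to 42377 CPM, the median gene from 531 to 687 CPM and the share from 41.9 to 44.2%. The number of genes called different between the replicates, 6 of 8, was 5 with at least 5 counts, 4 of 6 tested with the unstranded counts, 8 with total-count scaling and 0 with edgeR's exact test at the common dispersion. Total-count scaling called all 8 as higher in replicate 2, beside 50.8% of the 384 genes called in that direction, and reversed Mir433 (log2 ratio 0.11) and Mir127 (log2 ratio 0.012). Its share of calls higher in replicate 2 was 72.0% over all genes, against 47.6% with TMM. DESeq2 size factors, minimums of 0 or 50 counts and the chi-square test each called 6. The share called over all genes tested was 65.1% with DESeq2 size factors, 35.4% with a minimum of 0 and 78.6% with 50. It was 65.4% with the chi-square test, 57.4% with at least 5 counts and 63.7% with the unstranded counts. This background moved with the setting, so the group's count of 6 is not a stable result about the group. Over all genes, 250 were called with TMM and 2 with edgeR's exact test, whose dispersion came from the same 2 libraries, so that its counts say nothing about stability. Leaving out a replicate gives no value for the difference between replicates. No paired analysis was possible because there is 1 group. At this depth Mir3544 could have up to 0.798 and 0.536 CPM in replicates 1 and 2 and still be read at 0.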

Other observations

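Genes that lie between the 9 members without being among them had few or no counts. They were chosen after their values were seen. Mir3070a (chr12:109587943-109588031) had 17 counts in replicate 1 and 67 in replicate 2, and Mir3070b (chr12:109588592-109588680) had 41 and 97. Mir432 (chr12:109594956-109595030), which lies on the plus strand between Mir434 and Mir136, had 0 counts in both libraries and no opposite-strand count. Its flanking genes had 1459 and 219 CPM on average.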
